A study of Drosophila melanogaster with 6 samples.

Results

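The genes described here carry the tumour necrosis factor (TNF) and Jun N-terminal kinase (JNK) signal in Drosophila melanogaster: the ligand egr, the receptors wgn and grnd, the adaptors Traf4 and Traf6, the kinases Tak1, hep and bsk, the transcription factor Jra and the feedback phosphatase puc. A probe set, the group of array probes that reads 1 transcript, was taken for a gene when the array annotation gave it that gene's symbol and no other. This gave 15 probe sets for 9 of the 10 genes, out of 18769 probe sets on the array, and Tak1 was not analysed here. Of the 15 probe sets, 14 had a present call, the authors' mark for a signal above background, on all 6 arrays.

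RNA of whole dechorionated embryos at stages 12 to 13 was measured on 6 arrays, 1 per sample, 3 for each group. The 2xbcd group had TT16 fathers and TT16 mothers, with 2 copies of bicoid (bcd) in the mother, as the group's name says. For the 6xbcd group, TT16 males were mated with bcd+t8 females, which carry 6 copies. Eggs were laid over 90 min and kept for 8 h at 25 degrees, and each sample pooled over 100 eggs. The mothers' stock, their bcd dose and the embryos' own genotype changed together between the groups and cannot be told apart.

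Eiger, the protein of egr, is the TNF of the fly, and it binds the receptors Wengen (wgn) and Grindelwald (grnd). Traf adaptors pass the signal to kinases such as Tak1, which activate Hemipterous (hep), the kinase of JNK, and JNK itself is Basket (bsk). Basket phosphorylates Jun (Jra), which with Fos (kay) forms the factor AP-1, and AP-1 turns on puckered (puc), a phosphatase that switches Basket off again. In the embryo the JNK part of this cascade, from hep on, drives dorsal closure, when the epidermis is drawn over the amnioserosa. The cascade can also lead to cell death. Arrays read transcript levels and not kinase activity, and in whole embryos fewer cells of a type and less RNA per cell cannot be told apart.

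The maternal gene bcd, which checks the labels, read 2335, 1497 and 1375 on the 6xbcd arrays and 861, 546 and 301 on the 2xbcd arrays, so the groups did not overlap. Present calls were made for 9697 to 10474 probe sets per array, between 51.7% and 55.8%. On the main axis between arrays, which held 53.5% of the variance, 2xbcd replicates 3 and 2 and 6xbcd replicate 2 stood at 39.4, 19.1 and 6.87, and the other 3 arrays lay between -22.3 and -21.4. Amnioserosa markers had 8 of 9 genes among those tested, blood cell markers 6 of 8 and glial markers 4 of 4. None of 9 follicle cell and chorion genes was tested, since none was present on 3 or more arrays.

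No JNK or TNF gene differed between embryos of 6xbcd and 2xbcd mothers by the test over all probe sets. The test was limma on log2(signal + 16), with the pairs of same-numbered arrays as a block, and a call needed an adjusted p under 0.05. It called 0 of the 14 probe sets (9 genes), with adjusted p values from 0.316 to 0.997, where 1.32% of all 10137 tested probe sets were called. The count was also 0 when the main axis replaced the pairs as a term of the fit, with a lowest adjusted p of 0.289, for hep 1626465_a_at. At an unadjusted p under 0.05 there was 1 of 14, where 14.9% of all tested probe sets passed. Log2 changes, given as 6xbcd minus 2xbcd, lay between -0.21 and 0.13. The median over the 14 probe sets was -0.0190, where that over all tested probe sets was 0.0114. With 1 probe set per gene, the brightest, the median of the members was -0.0850. Of the 14 probe sets 7 had a negative and 7 a positive change, and 47.3% of all tested probe sets had a negative one. In 3 of 3 pairs 3 of the 14 had 1 sign, all of them lower in 6xbcd, and 39.0% of all tested probe sets had 1 sign in 3 pairs.

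**Figure D1:**
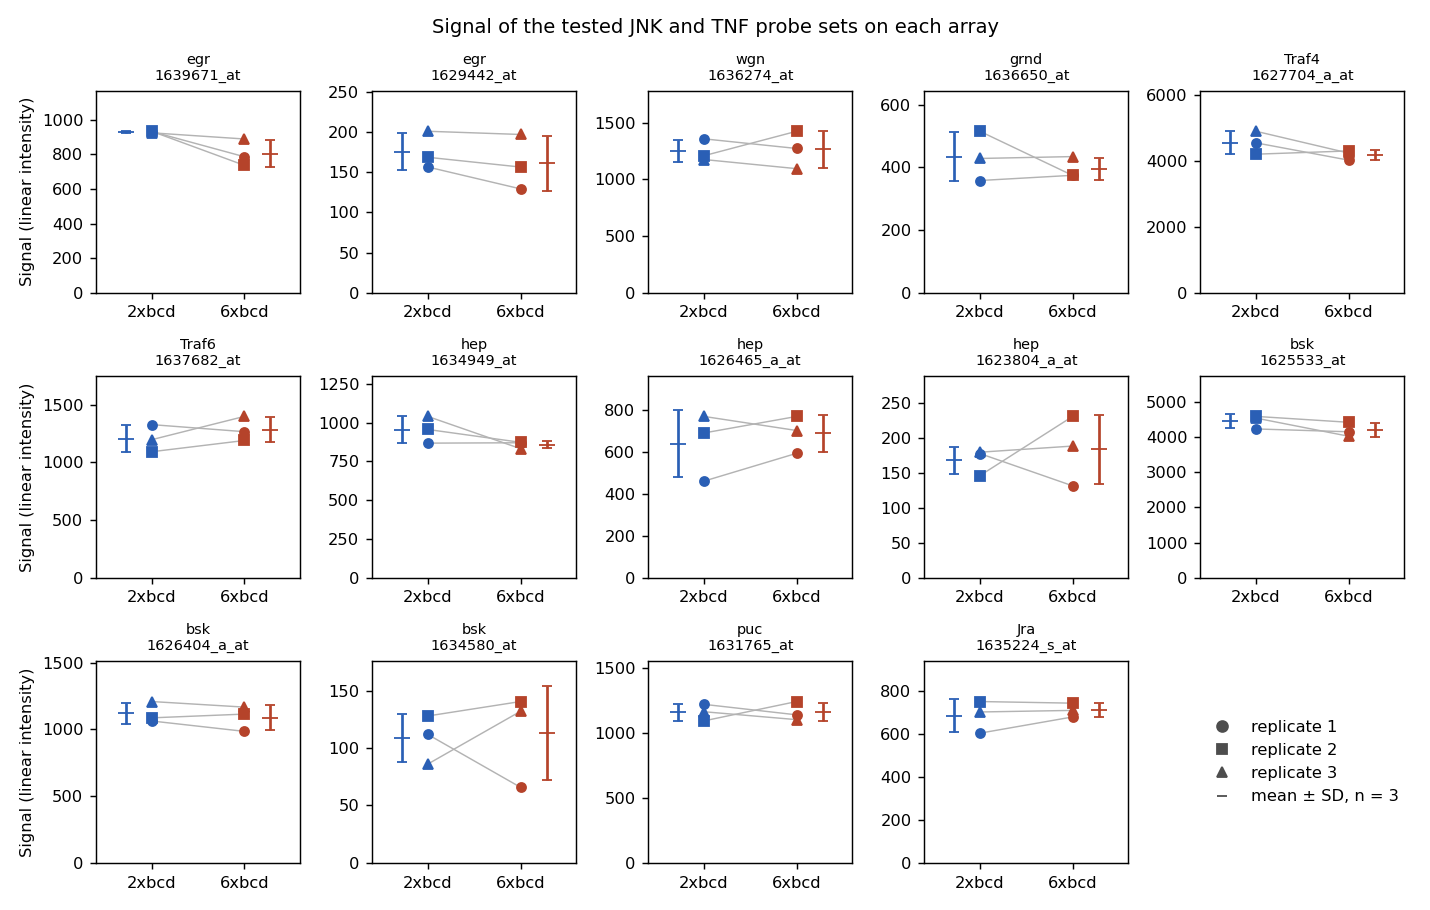
Signal of each tested probe set on each array, on a linear intensity scale from 0, with 2xbcd in blue and 6xbcd in red. Grey lines join arrays of the same replicate number, and bars give the mean ± SD (n = 3). Only in the panel of egr probe set 1639671_at do all 3 points of one group lie beyond those of the other, at 737 to 890 in 6xbcd and 925 to 934 in 2xbcd.

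The ligand gene egr, on chromosome 2R, had the largest change of the 14. Its brighter probe set, 1639671_at, read 787, 737 and 890 on the 6xbcd arrays and 933, 934 and 925 on the 2xbcd arrays, in the order of the replicate number. All 3 arrays of 6xbcd lay below all 3 of 2xbcd, and the 2xbcd arrays lay close together. Means were 804 ± 77.9 and 931 ± 4.84 (SD, n = 3), and the log2 change was -0.21 (standard error 0.0805). The 95% interval, not widened for the number of probe sets tested, ran from -0.41 to -0.01, or from 0.752-fold to 0.993-fold. Over all probe sets the limma adjusted p was 0.316 (unadjusted p = 0.0423), so the difference did not pass. It was the only 1 of the 14 with groups that did not overlap, and among all tested probe sets 8.68% had every 6xbcd array below every 2xbcd array.

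The dimmer egr probe set, 1629442_at, read 129, 157 and 197 in 6xbcd and 157, 169 and 201 in 2xbcd embryos. Here the groups overlapped, although each 6xbcd array was below the 2xbcd array of its number. The estimate was -0.12 on the log2 scale (95% interval -0.51 to 0.27, limma adjusted p = 0.755). Differences by pair were -0.24, -0.34 and -0.06 for the brighter probe set and -0.25, -0.10 and -0.03 for the dimmer one. Both were thus negative in 3 of 3 pairs, and both were smallest in pair 3. Among markers of other cells, the summed signal of the 4 glial genes did not overlap, at 5480 to 5911 in 6xbcd and 6029 to 6441 in 2xbcd embryos. Singly, repo (log2 change -0.21) did not overlap, while wrapper (-0.23), moody (-0.0501) and loco (-0.0150) did.

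The summed signals of the other marker lists overlapped between the groups. Each sum took in every probe set of the listed genes, also those that were not tested. Neuronal markers, with 2 of 6 genes tested, summed to 9468 to 11393 in 6xbcd and 10754 to 12653 in 2xbcd embryos. Amnioserosa markers summed to 6096 to 7450 and 5898 to 7975, and blood cell markers to 7632 to 9300 and 7339 to 9037, in the same order. No marker gene was called. An unadjusted limma p under 0.05 was met by 1 of 2 tested neuronal, 1 of 4 glial and 2 of 8 amnioserosa genes. Of blood cell genes 3 of 6 met it, and of muscle genes 0 of 1, where 14.9% of all tested probe sets did. The neuronal gene fne (log2 change -0.37), the glial gene repo (-0.21) and the amnioserosa genes tup (-0.19) and Doc2 (-0.28) were on the lower side in 6xbcd. The blood cell genes srp (0.26), Sr-CI (0.33) and crq (0.23) were on the higher side. Of these 7, fne and repo had every 6xbcd array below every 2xbcd array, as egr 1639671_at and 8.68% of all tested probe sets did. The other tested genes of these lists did not all follow. Of 8 amnioserosa genes 5 were lower and 3 higher in 6xbcd, and of 6 blood cell genes 3 were higher and 3 lower. The part of these cells' RNA in the egr values was not tested.

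Tace codes for the metalloprotease of the family that in mammals sheds TNF from the cell surface. It read 353, 317 and 302 in 6xbcd and 445, 347 and 439 in 2xbcd embryos. The highest 6xbcd array was above the lowest 2xbcd array. The log2 change was -0.32 (standard error 0.123, limma adjusted p = 0.317).

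The receptor genes wgn and grnd had values that overlapped between the groups. The X-linked gene wgn read 1272, 1424 and 1094 in 6xbcd and 1357, 1208 and 1175 in 2xbcd embryos, and both the highest and the lowest array were of 6xbcd. Its log2 change was 0.0137 (95% interval -0.20 to 0.23, limma adjusted p = 0.964). The sign turned to negative with median centring of the arrays and without replicate 2, at -0.0107 and -0.0969.

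The second receptor, grnd on 2L, read 374, 374 and 434 in 6xbcd and 358, 515 and 428 in 2xbcd embryos. A single array, 2xbcd replicate 2, was the highest, and the lowest was also of 2xbcd. The log2 change was -0.12 (95% interval -0.46 to 0.22, limma adjusted p = 0.722). It came from pair 2, with -0.45, while pairs 1 and 3 had 0.0631 and 0.0194, and without replicate 2 it was 0.0412.

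Both adaptor genes had their main probe set present on all arrays. Traf4 on 2L read 4020, 4300 and 4234 in 6xbcd and 4546, 4202 and 4897 in 2xbcd embryos with probe set 1627704_a_at. The groups overlapped through 2xbcd replicate 2, and the other 2xbcd arrays were above all of 6xbcd. Its log2 change was -0.12 (95% interval -0.30 to 0.06, limma adjusted p = 0.506). The other Traf4 probe set, 1637171_at, was absent on all 6 arrays, with signals of 2.1 to 19.3, and was not tested.

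Traf6 lies on the X chromosome. It read 1266, 1190 and 1398 in 6xbcd and 1327, 1092 and 1196 in 2xbcd embryos, with the highest array in 6xbcd and the lowest in 2xbcd. The log2 change was 0.0922 (95% interval -0.10 to 0.28, limma adjusted p = 0.612). It was the largest positive change when 1 probe set per gene was taken, and pair 1 went the other way, with -0.0675.

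The JNK kinase gene hep, on the X, had 3 probe sets that differed in sign. The brightest, 1634949_at, read 871, 873 and 833 in 6xbcd and 868, 957 and 1041 in 2xbcd embryos. Within 6xbcd it varied little, with a mean of 859 ± 22.9 against 955 ± 86.3 in 2xbcd (SD, n = 3), and 2xbcd replicate 1 lay among the 6xbcd values. The log2 change was -0.15 (95% interval -0.36 to 0.06, limma adjusted p = 0.473).

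Probe set 1626465_a_at of hep read 594, 770 and 703 in 6xbcd and 461, 691 and 770 in 2xbcd embryos. Its low values were those of both arrays of replicate 1, and its log2 change was 0.13 (limma adjusted p = 0.639). That change was 0.0119 without replicate 1, 0.254 without replicate 3 and 0.398 with the main axis as a covariate (adjusted p = 0.289). The dimmest, 1623804_a_at, read 132, 231 and 189 in 6xbcd and 178, 146 and 180 in 2xbcd embryos. Here the lowest and the highest array were both of 6xbcd. The log2 change of 0.0923 (limma adjusted p = 0.891) turned to -0.0214 with quantile normalization and to -0.165 without replicate 2. Probe sets of 1 gene share its RNA and are no replicates of each other.

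The JNK gene bsk, on 2L, also had 3 probe sets. The brightest, 1625533_at, read 4146, 4416 and 4019 in 6xbcd and 4227, 4583 and 4535 in 2xbcd embryos. It was lower in 6xbcd in 3 of 3 pairs while the groups overlapped, and the highest array was only 1.14 times the lowest. Its log2 change was -0.0850 (95% interval -0.24 to 0.07, limma adjusted p = 0.575).

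Probe set 1626404_a_at of bsk read 985, 1115 and 1167 in 6xbcd and 1063, 1087 and 1209 in 2xbcd embryos, with a log2 change of -0.0406 (95% interval -0.20 to 0.12, limma adjusted p = 0.807). In both groups replicate 1 was the lowest array. The dim probe set 1634580_at read 65.8, 140.5 and 132 in 6xbcd and 112, 128 and 86.0 in 2xbcd embryos. Its pairs ranged from -0.64 to 0.54 and its interval from -0.67 to 0.68, the widest of the 14. Its log2 change of 0.00443 had no stable sign, at -0.145 with quantile normalization and -0.0200 with median centring.

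**Figure D2:**
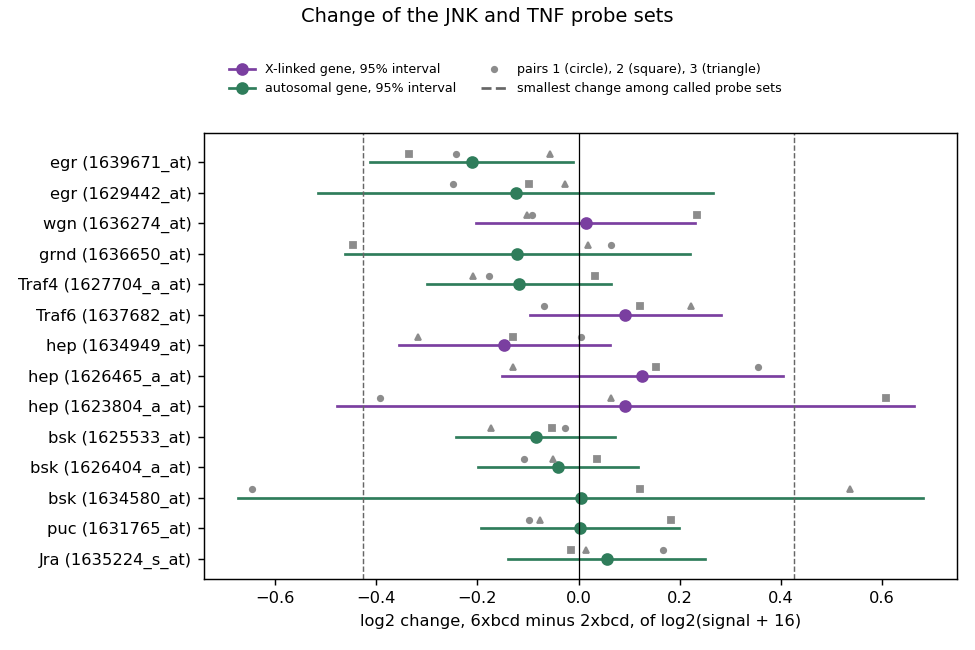
Log2 change (6xbcd minus 2xbcd) of each tested probe set with its 95% interval, X-linked genes in purple and autosomal genes in green, and the difference of each pair as a grey mark. Dashed lines stand at 0.426 in either direction, the smallest change among the 134 called probe sets, and all 14 estimates lie between them.

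Jra, the Jun gene on 2R, read 678, 742 and 708 in 6xbcd and 602, 749 and 701 in 2xbcd embryos. Both the lowest and the highest array were of 2xbcd. The log2 change was 0.0555 (95% interval -0.14 to 0.25, limma adjusted p = 0.787). The name of its probe set, 1635224_s_at, has the suffix that Affymetrix gives to probes which may match transcripts of more than 1 gene. Jra lies close to egr in the gene table, with 2 protein-coding genes, CG2269 and sut4, between them, and the brighter egr probe set had the opposite sign. Without replicate 1 the log2 change of Jra was only 0.00011, and a link between these genes was not tested.

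Its partner kay, the Fos gene, read 403, 480 and 527 in 6xbcd and 482, 475 and 647 in 2xbcd embryos. The groups overlapped, and the highest array was 2xbcd replicate 3. The log2 change of kay was -0.17 (95% interval -0.43 to 0.08, limma adjusted p = 0.487).

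The phosphatase gene puc, on 3R, is the usual transcript by which JNK activity is read in the fly. It read 1137, 1239 and 1100 in 6xbcd and 1218, 1090 and 1161 in 2xbcd embryos. The highest array was 6xbcd replicate 2 and the lowest 2xbcd replicate 2, so that this pair alone was positive, at 0.18, against -0.0976 and -0.0767. Group means were 1159 ± 72.1 and 1156 ± 63.8 (SD, n = 3), with a log2 change of 0.00264 and a limma adjusted p of 0.993. The 95% interval ran from -0.19 to 0.20, or from 0.875-fold to 1.15-fold, so a change of puc over the whole embryo larger than that lay outside it. The sign was not stable, at -0.0217 with median centring and -0.0871 without replicate 2.

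These intervals belong to single probe sets in the paired fit and were not widened for the number of probe sets tested. They do not give the size of change that the adjusted test could have missed. Of the 14 intervals 11 lay within a log2 change of 0.5 in either direction, or 1.41-fold. The exceptions were the dimmest probe sets of egr, hep and bsk. Among the 134 probe sets called on the array, the smallest change was 0.426 and the median 0.801. Changes of the size seen in egr were thus below every change that the test called here.

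The spread of the members between arrays, regardless of group, was also set beside that of probe sets of like signal. The SD of log2(signal + 16) over the 6 arrays had a median of 0.132 over the 14 probe sets and 0.188 over all tested ones. Compared with probe sets in the same decile of mean signal, 10 of the 14 lay below the median SD. Such a median has as many probe sets below it as above. Some of the 10 lay just under it, as egr 1639671_at did, with 0.144 where its decile had 0.147. Probe sets of 1 gene were counted singly, so this count describes the 14 and was not tested. The lowest was puc, with an SD of 0.0745 and a highest array at 1.14 times its lowest, at percentile 5.70 of all tested probe sets. The brightest bsk probe set followed at 0.0753. At the other end stood the dim bsk probe set 1634580_at, with 0.365 and a ratio of 2.14 between its highest and lowest arrays, and hep 1626465_a_at, with 0.276 where its decile had a median of 0.162.

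**Figure D3:**
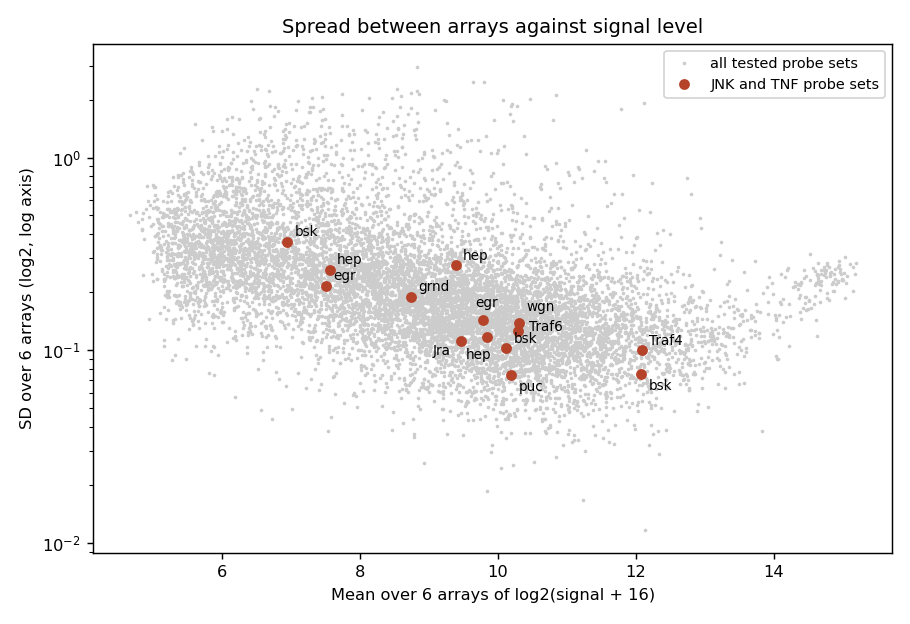
SD over the 6 arrays (log axis) against the mean of log2(signal + 16), for all 10137 tested probe sets (grey) and the 14 JNK and TNF probe sets (red). The red points sit within the grey cloud, with puc at 0.0745 and bsk at 0.0753 near its lower side and the dim bsk probe set at 0.365.

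The authors' deposited table sets each 6xbcd array against the 2xbcd array of its number. It holds 42 calls for the 14 probe sets, of which 40 were no change. In the authors' deposited table the 2 exceptions were hep 1623804_a_at, called increased in pair 2 with a log2 ratio of 0.5, and Traf4 1627704_a_at, called decreased in pair 3 with a log2 ratio of -0.3. That is 4.76% of the members' calls, where 14.8% of those of all tested probe sets were increases or decreases. For egr 1639671_at the log2 ratios in the authors' deposited table were 0, -0.2 and 0, each called as no change.

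Of the measured genes wgn, Traf6 and hep are X-linked, with 5 tested probe sets. None of these 5 was called, where 3.83% of 1411 tested X-linked probe sets were. Their median log2 change was 0.0922, and that of the 9 autosomal probe sets -0.0850. The X-linked median counts hep 3 times. With the brightest probe set of each gene, the X-linked genes had mixed signs, at 0.0137 for wgn, 0.0922 for Traf6 and -0.15 for hep.

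Genes around the cascade were examined in 5 lists of 77 genes, of which 53 were tested. None of the 53 was called, where 1.32% of all tested probe sets were, and 6 (11.3%) had an unadjusted limma p under 0.05, where 14.9% of all tested probe sets did. The lowest adjusted p was 0.146. Their log2 changes were positive in 27 and negative in 26, with a median of 0.00244. The small GTPase genes Rac1, Rac2, Cdc42 and Rho1 and the death inducers rpr and hid were not analysed here. Among the genes named below, the probe sets of Cka, dpp, cher, Zyx, Diap2 and p38a carry the same name suffix as that of Jra.

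Of 22 regulators of the cascade 14 were tested and 0 were called, with a median of 0.00514. Besides Tace and kay, the smallest p was that of Cka, which codes for a scaffold of the JNK kinases. Cka read 1650, 1881 and 1805 in 6xbcd and 1794, 2087 and 2025 in 2xbcd embryos. Each 6xbcd array lay below its pair while the groups overlapped (log2 change -0.14, limma adjusted p = 0.302).

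JNK target genes had 9 of 18 members tested and 0 called, and their median was -0.0206. The gene dpp, a ligand of the BMP family that leading edge cells make under JNK control, read 519, 492 and 659 in 6xbcd and 602, 696 and 906 in 2xbcd embryos. It was lower in 6xbcd in 3 of 3 pairs, and 6xbcd replicate 3 lay above 2xbcd replicate 1. With a log2 change of -0.38 and a limma adjusted p of 0.162 it did not pass. GstD1, a glutathione transferase of the oxidative stress response, had 0.28 (adjusted p = 0.307), and cher, the filamin gene, -0.20 (adjusted p = 0.384). Without replicate 3 these were 0.136 for GstD1 and -0.0990 for cher.

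Dorsal closure effectors had 11 of 15 genes tested, 0 called and a median of 0.00292. The integrin gene mys, on the X, had probe sets of opposite sign. Its probe set 1639245_x_at, whose suffix marks probes that may bind other transcripts, read 2446, 2783 and 2345 in 6xbcd and 1570, 1985 and 2550 in 2xbcd embryos. Only in pair 3 was 6xbcd lower. The log2 change was 0.33 (limma adjusted p = 0.374), and without replicate 3 it was 0.559 and passed (adjusted p = 0.00518), as it did with the arrays' main axis as a covariate (0.576, adjusted p = 0.0312). Probe set 1634649_at of mys had -0.19 (adjusted p = 0.247). Zyx, the zyxin gene, had -0.14 (adjusted p = 0.350), and cno, a junction linker, 0.19 (adjusted p = 0.391). For Zyx every 6xbcd array lay below every 2xbcd array, as for 8.68% of all tested probe sets.

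Tak1 also feeds the IMD immune pathway, of which 13 of 14 genes were tested and 0 called, with a median of -0.0794. The X-linked ben codes for a ubiquitin-conjugating enzyme. It read 2122, 2072 and 2392 in 6xbcd and 2307, 2302 and 3318 in 2xbcd embryos. Most of its spread was 2xbcd replicate 3, and its log2 change was -0.25 (limma adjusted p = 0.280). The inhibitor gene pirk read 154, 177 and 172 in 6xbcd and 133, 144 and 110 in 2xbcd embryos (log2 change 0.35, adjusted p = 0.422). Every 6xbcd array of pirk lay above every 2xbcd array, and the share of all tested probe sets in that direction was not counted. Diap2, an inhibitor of apoptosis protein gene, had -0.11 (adjusted p = 0.412).

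The p38 branch, a MAP kinase cascade beside JNK, had 6 of 8 genes tested, 0 called and a median of 0.223. Of these 6 genes 4 were higher and 2 lower in 6xbcd. The X-linked lic, which codes for the kinase of p38, had the lowest adjusted p of the 5 lists. It read 978, 761 and 787 in 6xbcd and 804, 625 and 577 in 2xbcd embryos. Each 6xbcd array was above its pair, and the groups overlapped through 2xbcd replicate 1. The change on the log2 scale was 0.33 (standard error 0.0753, limma adjusted p = 0.146), and with the main axis as a covariate it was 0.148. The kinase p38a had 0.32 (adjusted p = 0.417) and Mekk1, a kinase upstream in this cascade, 0.13 (adjusted p = 0.568). Without replicate 3 the p38a change was 0.119.

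**Figure D4:**
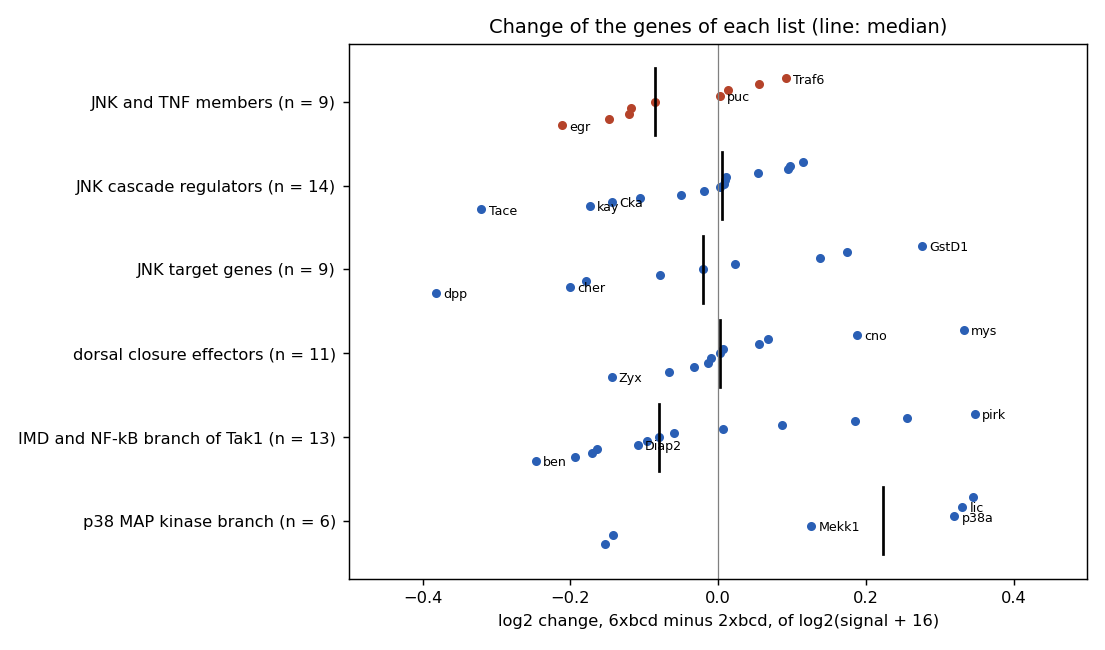
Log2 change (6xbcd minus 2xbcd) of each tested gene, with 1 probe set per gene, for the JNK and TNF genes (red) and the 5 lists around them (blue). Black lines are medians, from -0.0850 for the JNK and TNF genes to 0.223 for the p38 branch, and no gene shown passed the test.

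Profiles most like those of egr and puc were looked up over the 6 arrays among the 10137 tested probe sets. For egr 1639671_at the highest Pearson correlations were those of Tango11 (0.995), twy (0.992) and ND-B17 (0.987). For puc they were CG33468, l(1)G0196 and Ir64a, at 0.969 each. These are the highest of many values over only 6 arrays, which share scaling and pairing, and are given as a description. None of these 6 genes was called, with adjusted p values from 0.366 to 0.990.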

How the data were processed

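Total RNA was hybridised to Affymetrix GeneChip Drosophila Genome 2.0 arrays and read with GCOS, per the submitters' processing notes. The signal the authors deposited is a linear intensity, scaled per array, since its trimmed mean was 498 to 499 on each. Per the file headers, the authors also gave, for each pair, a change call with its p-value and a log2 ratio. For arrays, their number limits the precision. Of 18952 probe sets 183 controls were left out. Symbols came from the array annotation and chromosomes from a gene table of Release 6. Analyses used log2(signal + 16), with no normalization added, of probe sets present on at least 3 of 6 arrays. Groups were compared with limma 3.58.1 under R 4.3.3 (lmFit, eBayes with an intensity trend, two-sided, Benjamini-Hochberg over 10137 probe sets), checked on simulated data. It had 2 residual and 3.56 prior degrees of freedom.

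The design text states paired experiments and independent RNA samples, so the replicate number was a block. After subtraction of group means, correlations across probe sets between arrays of 1 pair were 0.437, 0.385 and -0.190. Between arrays of unlike number they ran from -0.629 to 0.422, so the block rests on the design text.

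The members and lists were chosen with earlier results of these data known. The text names bcd, all members, up to 3 genes per list with the smallest p (1 probe set per gene, the brightest), and for egr and puc the 3 most alike profiles. Named besides were the second mys probe set, which goes with the first, another probe set of l(1)G0196, marker genes and untested genes. List symbols were matched to current ones, and Mnk had no match. Tried as alternatives were a fit without the block, quantile normalization, median centring, an offset of 1 or 64, no filter, presence on all 6 arrays, eBayes without its trend, the series matrix, a 0.1 threshold, leaving out each pair, and the arrays' main axis as covariate. Python 3.11.15, pandas 2.3.3 and numpy 2.4.6 were used for summaries.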

Additional observations from a re-analysis of the deposited data

How the results depend on the processing

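No JNK or TNF probe set was called under any of the alternatives, the threshold of 0.1 included, and over these fits the lowest adjusted p of a member was 0.207, for egr without replicate 3. Without the replicate block the lowest was 0.527, 0 members were called, and 97 of all probe sets were, against 134 in the paired fit. The pairing thus changed no member's call. The count over all probe sets was 5 without the intensity trend, 247 at a threshold of 0.1 and between 10 and 270 when a pair was left out. The median change of the members lay between -0.0969 and -0.0406 when a pair was left out, and was -0.0301 with the main axis as covariate and -0.0190 over all member probe sets. Of 182 alternative values of members 168 kept their sign and 14 turned it, none of them past the threshold. With median centring puc had -0.0217, wgn -0.0107 and bsk 1634580_at -0.0200. That bsk probe set had -0.145 with quantile normalization and -0.00341 with an offset of 1, and -0.262 to 0.329 when a pair was left out. Quantile normalization gave hep 1623804_a_at -0.0214. The main axis as covariate gave bsk 1626404_a_at 0.0192 and wgn -0.00265. With a pair left out, grnd ranged from -0.213 to 0.0412, hep 1623804_a_at from -0.165 to 0.335, puc from -0.0871 to 0.0528 and wgn from -0.0969 to 0.0712. Of the 15 named list genes, mys alone passed under any alternative. The bcd call was lost without the replicate block (adjusted p = 0.118), without the trend (0.140), without replicate 1 (0.0760) or 2 (0.0984) and with the main axis as covariate (0.0839). The cause of these moves was not tested. The dim probe sets of egr, hep and bsk limit what could be seen, and 1 Traf4 probe set was below background.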
